A study of Bos taurus with 14 samples.

Results

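Pleiotrophin, midkine and the heparan sulfate proteoglycans that carry such growth factors at the cell surface were followed across bovine stem cells, blastocysts and skin fibroblasts. The 9 genes were taken by symbol: the growth factors PTN and MDK, the glypicans GPC1, GPC3, GPC4 and GPC6, and the syndecans SDC1, SDC2 and SDC4. The group was chosen by the measured RPKM of PTN and GPC4, which stood among the largest rises of passage 10 stem cells over blastocysts, so that contrast is described here without a test. The 2 sets of deposited files list different features, of which 23159 could be used in the first set and 24616 in the second. Each set lists 8 of the 9 genes and both list 7. MDK was read in the second set alone and GPC6 in the first alone.

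Total RNA was sequenced from 14 cattle (Bos taurus) libraries. The stem cells were CTFR-bESC, embryonic stem cells derived from blastocysts and kept on mouse embryonic fibroblast feeders in a base medium without FGF2 and TGF-beta, to which human FGF2 (20 ng/mL) and the WNT pathway inhibitor IWR1 (2.5 µM) were added. One library was made from line A at each of passages (P) 10, 13, 23, 35 and 45, and from line B at each of passages 10, 12, 24, 35 and 46. They were set against 2 in vivo blastocyst pools, each of 10 whole embryos with their epiblast, trophectoderm and hypoblast together, and against skin fibroblasts of 2 lines. The libraries of a stem cell line follow 1 culture through its passages. In tests of the later libraries p-values therefore measure the spread between these libraries and not between independent derivations. In the test of P10 against fibroblasts they rest on the spread between the 2 P10 lines, the 2 fibroblast lines and the 2 pools. The values are RPKM, reads scaled to gene length and to the mapped reads of the library, which allow levels of different genes to be compared per length. The P10 and control libraries make up the first set of files and the 8 later libraries the second.

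Pleiotrophin and midkine are small secreted proteins that bind heparan sulfate and related chains and act on receptors such as PTPRZ1, a transmembrane tyrosine phosphatase. Glypicans are held to the outer membrane by a lipid anchor and syndecans by a membrane-spanning segment. Both carry heparan sulfate chains, which hold FGF2 and other ligands and serve as co-receptors for FGF and WNT signals. In the reference gene table (assembly ARS-UCD2.0, used for names and neighbours only) GPC4 and GPC3 are neighbouring genes on chromosome X, and GPC6 lies next to GPC5 on chromosome 12.

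Defining markers were read as a check on the labels. The pluripotency factor POU5F1 stood at 223 and 151 RPKM in P10 lines A and B and at 48.6 and 38.2 RPKM in the blastocyst pools, while both fibroblast lines had it listed at 0. NANOG did not separate P10 from the pools, at 4.49 and 2.15 RPKM in P10 lines A and B and 0.549 and 4.57 RPKM in pools 1 and 2. POU5F1 and NANOG are not listed in the second set. Summed over SOX2, SALL4, LIN28B and DNMT3B, the 4 pluripotency markers listed there, the later libraries stood at 324 to 449 RPKM. With POU5F1 and NANOG included, the sums in the first set were 611 and 476 RPKM in P10 lines A and B. They were 87.4 and 72.8 RPKM in blastocyst pools 1 and 2 and 0.499 and 2.14 RPKM in fibroblast lines 1 and 2. Summed over 9 fibroblast markers, the libraries stood at 109 and 225 RPKM in P10 lines A and B, 214 to 344 RPKM (line A) and 219 to 306 RPKM (line B) in later passages, 2.68 and 3.17 RPKM in blastocyst pools 1 and 2, and 5761 and 6106 RPKM in fibroblast lines 1 and 2. Of these 9, POSTN alone overlapped between stem cells and fibroblasts. It measured 0.586 and 8.52 RPKM in P10 lines A and B, 4.43 to 29.5 RPKM later, and 1.59 and 11.1 RPKM in fibroblast lines 1 and 2. Trophectoderm markers did not all separate the stem cells from the pools. CDX2 was listed at 0 in all 10 stem cell libraries and stood at 13.8 and 15.9 RPKM in the pools. GATA3, GATA2 and TFAP2C separated them too, at no more than 0.6, 0.326 and 0.174 RPKM in any stem cell library. In pools 1 and 2 GATA3 measured 12.3 and 12.4 RPKM, GATA2 8.84 and 3.26 RPKM, and TFAP2C 34.9 and 31.0 RPKM. KRT8 did not separate them, at 115 to 514 RPKM in the stem cells and 473 and 306 RPKM in pools 1 and 2. Summed over 6 such markers, P10 lines A and B stood at 157 and 188 RPKM, the later libraries at 235 to 788 RPKM and the pools at 957 and 665 RPKM, so later libraries and pools overlapped. In the blastocyst pools 2 features took 65.8% and 64.0% of the summed RPKM, against 2.08% to 3.36% in the other libraries. Their share of the reads is unknown, and how far they lower the RPKM of other genes there was not tested. In bulk libraries, fewer cells that express a gene and less RNA per cell cannot be told apart. The stem cells grew on mouse feeder cells, and the part of feeder RNA in their values was not tested.

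**Figure D1:**
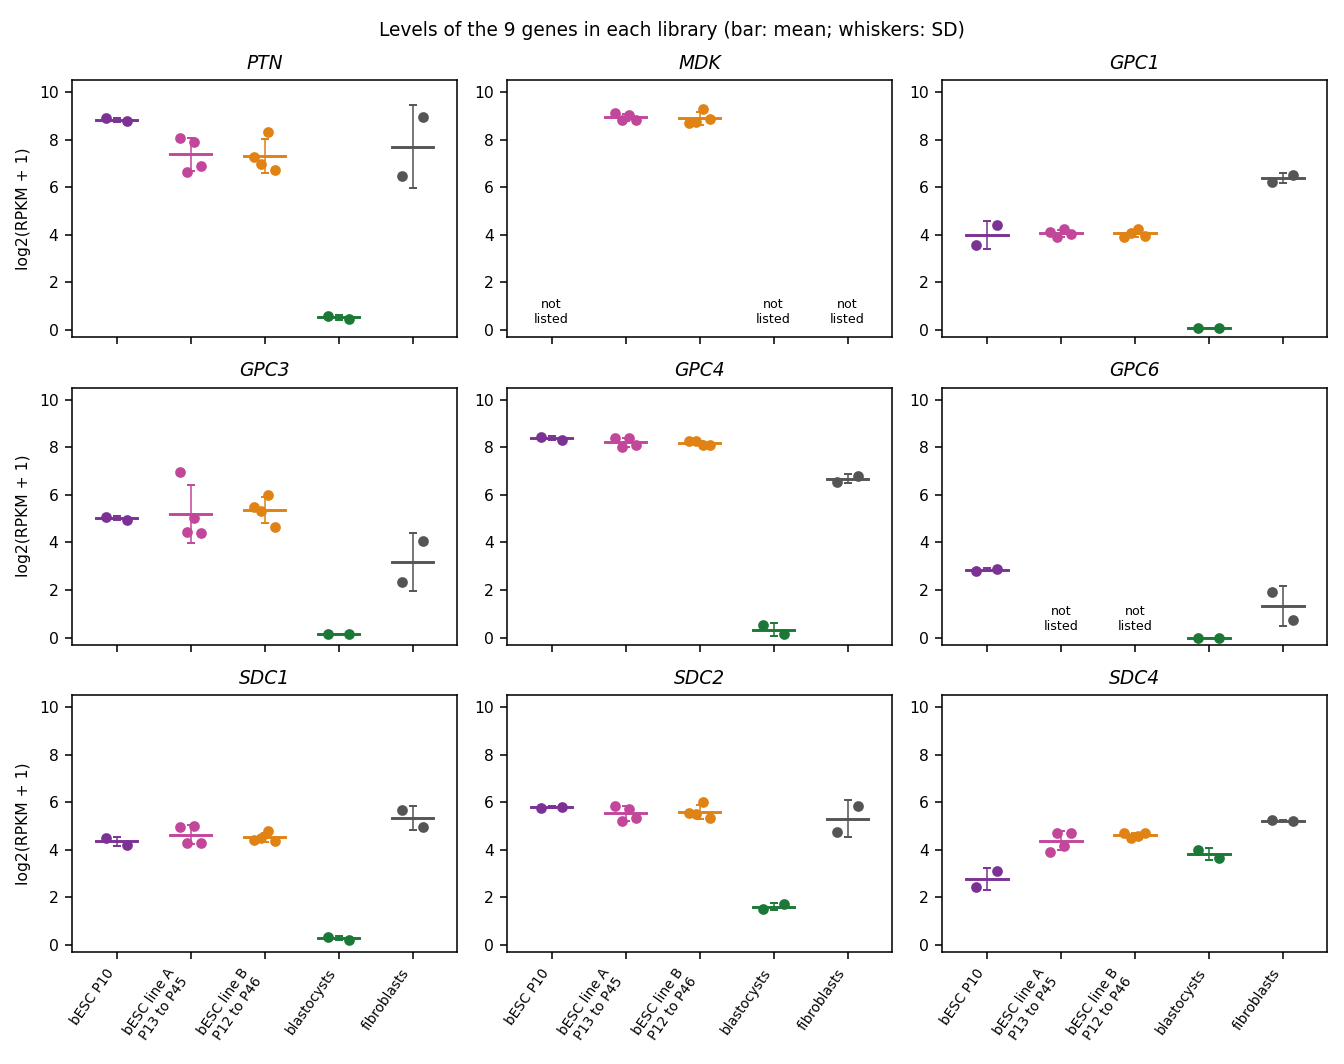
Level of each of the 9 genes as log2(RPKM + 1) in every library, with 2 P10 libraries, 4 later libraries of each stem cell line, 2 blastocyst pools and 2 fibroblast lines; points are libraries, the horizontal bar is the mean and the whiskers are the SD. PTN, GPC1, GPC3, GPC4, GPC6 and SDC1 lie under 1 on this scale in both blastocyst pools, while SDC2 and SDC4 do not, and the P10 and control values belong to a separate set of files from the later ones.

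The growth factor PTN was abundant in the P10 stem cells and close to 0 in blastocysts. It measured 476 and 439 RPKM in P10 lines A and B, 0.522 and 0.382 RPKM in blastocyst pools 1 and 2, and 88.1 and 494 RPKM in fibroblast lines 1 and 2. Both P10 libraries stood above both pools, and the fibroblast lines lay 5.61-fold apart on either side of the P10 values. The midkine gene MDK, read in the later stem cells only, measured 551, 453, 518 and 449 RPKM in line A at P13, P23, P35 and P45, and 420, 425, 620 and 461 RPKM in line B at P12, P24, P35 and P46. It had the highest mean of the 8 listed genes in these libraries, at 487 ± 70.0 RPKM (SD, n = 8).

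GPC4 was the dominant glypican of the stem cells. It measured 345 and 320 RPKM in P10 lines A and B, 0.44 and 0.107 RPKM in blastocyst pools 1 and 2, and 92.8 and 111 RPKM in fibroblast lines 1 and 2. All stem cell libraries, the later ones included at 254 to 330 RPKM, lay above the fibroblasts, and the pools lay below 1 RPKM. GPC3, a glypican that restrains growth and is lost in an overgrowth syndrome in humans, measured 32.8 and 29.9 RPKM in P10 lines A and B, 0.12 and 0.117 RPKM in blastocyst pools 1 and 2, and 4.01 and 15.6 RPKM in fibroblast lines 1 and 2. The P10 libraries lay close together and above all 4 controls.

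GPC1 had the opposite order between the cultured cells. It measured 11 and 20.2 RPKM in P10 lines A and B, 0.048 and 0.062 RPKM in the pools, and 74.4 and 91.7 RPKM in the fibroblast lines. GPC6 was low, at 5.99 and 6.46 RPKM in P10 lines A and B and 2.77 and 0.669 RPKM in fibroblast lines 1 and 2, with both pools listed at 0. P10 and fibroblast values of GPC1 and of GPC6 did not overlap.

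The syndecans differed in which member led. SDC4, a syndecan of focal adhesions, measured 4.43 and 7.59 RPKM in P10 lines A and B, 15.0 and 11.5 RPKM in blastocyst pools 1 and 2, and 36.8 and 36.0 RPKM in fibroblast lines 1 and 2. It was the only one of the 8 genes in this set whose P10 values lay below both pools. SDC2, the syndecan of mesenchymal cells, measured 53.4 and 55.4 RPKM in P10 lines A and B, 1.85 and 2.30 RPKM in the pools, and 26.3 and 56.9 RPKM in fibroblast lines 1 and 2. SDC1, the syndecan of epithelia and plasma cells, measured 21.5 and 17.6 RPKM in P10 lines A and B, 0.28 and 0.168 RPKM in the pools, and 50.4 and 30.6 RPKM in the fibroblast lines. SDC1 values of P10 thus lay below the fibroblasts and above the pools with no overlap, whereas SDC2 values of P10 lay between those of the fibroblast lines.

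Within P10 the mean levels ran from PTN (457 RPKM) over GPC4 (333 RPKM), SDC2 (54.4 RPKM), GPC3 (31.4 RPKM), SDC1 (19.6 RPKM) and GPC1 (15.6 RPKM) to GPC6 (6.22 RPKM) and SDC4 (6.01 RPKM). The ranges of SDC1 and GPC1 overlapped, as did those of GPC6 and SDC4, so these neighbours were not apart beyond their spread. In the later libraries the order was MDK, GPC4 (293 ± 28.8 RPKM), PTN (178 ± 85.4 RPKM), SDC2 (47.2 ± 9.71 RPKM), GPC3 (45.5 ± 34.7 RPKM), SDC1 (23.4 ± 5.06 RPKM), SDC4 (22.0 ± 4.23 RPKM) and GPC1 (15.8 ± 1.60 RPKM; all SD, n = 8). There the range of MDK lay above that of GPC4, those of GPC4 and PTN overlapped, that of PTN lay above that of SDC2, and from SDC2 down each gene's range overlapped that of the next.

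Read as shares of a family, the syndecan mixture changed its leading member between the groups. Of the summed RPKM of SDC1, SDC2, SDC3 and SDC4, SDC2 made up 59.6% and 58.1% in P10 lines A and B, 10.7% and 16.3% in the blastocyst pools, and 20.9% and 43.0% in the fibroblast lines. SDC4 made up 4.95% and 7.96% in P10 lines A and B, 86.5% and 81.5% in the pools, and 29.2% and 27.2% in the fibroblast lines. SDC2 therefore led in P10 and SDC4 in the pools. In the later libraries SDC2 still led, with 32.4% to 47.0% of the sum, beside 16.7% to 29.1% for SDC3, the syndecan of neural tissue. Of the glypicans listed in both sets, GPC4 made up 87.4% and 84.7% in P10 and 68.2% to 84.5% in the later libraries, and 54.2% and 50.8% in fibroblasts, where GPC1 held most of the rest. The blastocyst shares of the glypicans rest on sums of 0.608 and 0.286 RPKM. These shares are a description of RPKM within each library and carry no test.

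**Figure D2:**
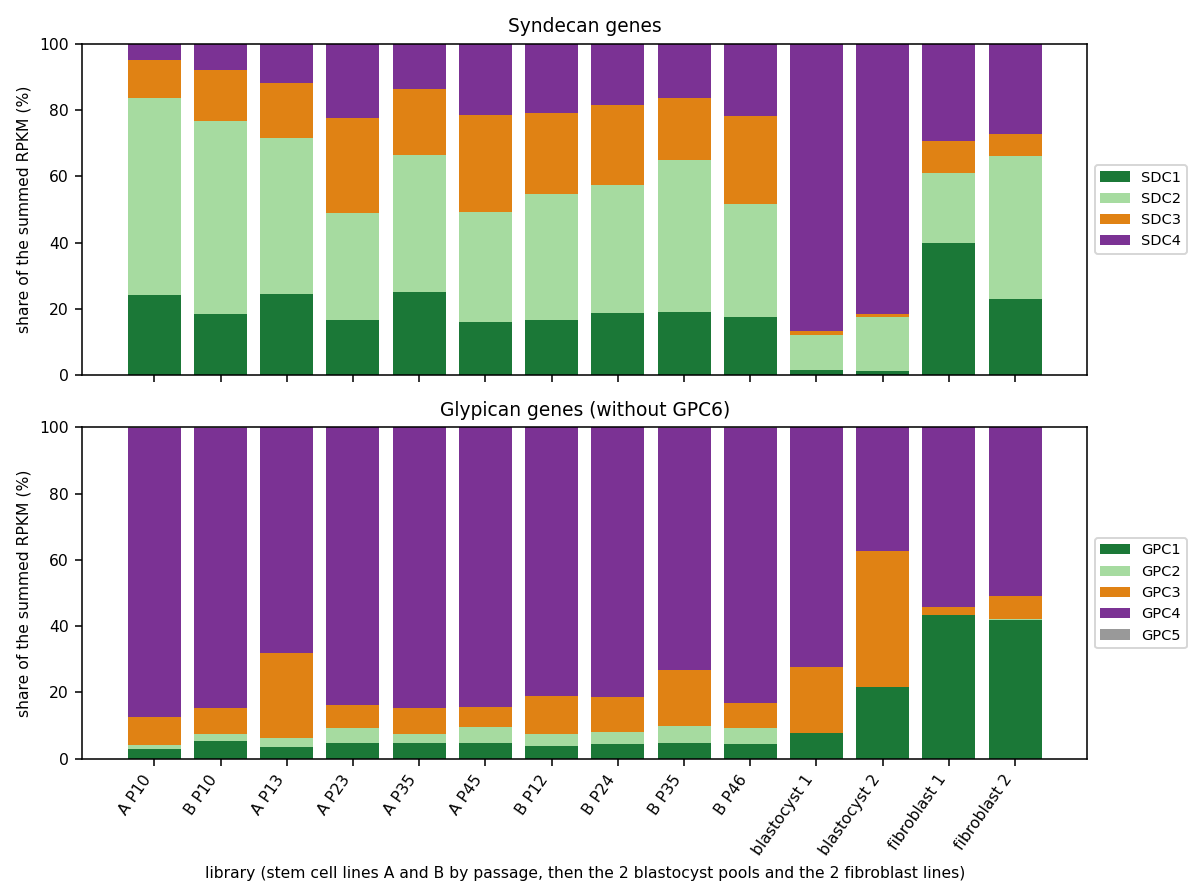
Share of each syndecan gene (upper panel) and each glypican gene except GPC6 (lower panel) in the summed RPKM of its family, in percent, for each of the 14 libraries. SDC2 is the largest syndecan share in both P10 libraries (59.6% and 58.1%) and SDC4 in both blastocyst pools (86.5% and 81.5%); the glypican bars of the pools rest on sums under 1 RPKM.

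Against blastocysts the genes were chosen, so their differences are given as a description. On the log2(RPKM + 1) scale the median gene itself stood 1.43 higher in P10 than in blastocysts, and changes are given relative to it. PTN stood at 6.87 and GPC4 at 6.62, ranks 4 and 6 of 11761 genes by size of the rise. GPC3 stood at 3.43, SDC2 at 2.75, SDC1 at 2.64, GPC1 at 2.49 and GPC6 at 1.42, and SDC4 at -2.48. Both P10 libraries lay above both pools for 7 of the 8 genes and below them for 1; over all genes the shares were 81.1% and 10.1%. Both fibroblast lines lay above both pools for 8 of 8, and over all genes for 71.9%, with 15.4% below. P10 and fibroblasts are set against the same pools in these counts.

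Set against fibroblasts, the P10 stem cells carried more GPC3 and GPC4 and less GPC1, SDC1 and SDC4. The calls of GPC3 and SDC1 did not hold under all alternatives. Changes are in log2(RPKM + 1), which understates those of genes near or under 1 RPKM, relative to the median gene (0.23 higher in P10), while p-values test the fitted change before that subtraction, with limma and Benjamini-Hochberg adjustment over 11761 genes. The P10 libraries are the ones by which the group was chosen. PTN and GPC4 were picked for their rise in these same libraries, so a call of GPC4 as higher is no independent support for a difference. GPC4 was higher by 1.47 ± 0.20 (SE, adjusted p = 5.82e-04), with mean levels of 333 ± 18.1 RPKM in P10 and 102 ± 12.9 RPKM in fibroblasts (SD, n = 2 each). GPC3 was higher by 1.59 ± 0.51 (adjusted p = 0.0215); its fitted change of 1.83 was 0.96 without fibroblast line 1 and 2.69 without line 2. GPC6 stood at 1.29 ± 0.37, but it passed the filter on low values (1 RPKM in 2 libraries) only through the P10 libraries, in which it is high, so its call (adjusted p = 0.0117) is no support for a difference; its fitted change of 1.52 was 2.11 without fibroblast line 1 and 0.94 without line 2.

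GPC1 stood at -2.62 ± 0.29 (adjusted p = 7.05e-04), SDC4 at -2.68 ± 0.26 (adjusted p = 4.07e-04) and SDC1 at -1.21 ± 0.27 (adjusted p = 0.0206). The fitted change of SDC1, -0.98, was -0.62 without fibroblast line 1. Mean GPC1 was 15.6 ± 6.49 RPKM in P10 and 83.0 ± 12.2 RPKM in fibroblasts, and mean SDC4 was 6.01 ± 2.23 RPKM in P10 and 36.4 ± 0.567 RPKM in fibroblasts. PTN (0.89 ± 0.70, adjusted p = 0.215) and SDC2 (0.25 ± 0.34, adjusted p = 0.274) did not pass the test. Both are genes in which the fibroblast lines disagreed: PTN was 494 RPKM in line 2 and 88.1 RPKM in line 1, and SDC2 was 56.9 RPKM in line 2 and 26.3 RPKM in line 1. Across the group, 3 of the 8 genes were at least 2-fold higher in fibroblast line 2 than in line 1 (PTN, GPC3 and SDC2) and 1 at least 2-fold lower (GPC6), whereas 2.93% and 2.14% of all genes were; between the P10 lines 0 of 8 were that far apart, with 1.05% of all genes that much higher and 3.5% that much lower in line A.

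In all, 3 of 8 genes were called higher, GPC6 among them, and 3 lower, with 35.4% and 21.9% of all 11761 genes called in these directions and 57.3% in either. Of all calls, 61.8% were higher; under median-of-ratios scaling the share was 51.0%. Without fibroblast line 2, PTN was called at a fitted change of 2.36 (adjusted p = 0.00109) and SDC2 at 1.02 (adjusted p = 0.0141), and without line 1 they stood at -0.11 (adjusted p = 0.706) and -0.06 (adjusted p = 0.842). The calls of GPC3, GPC6 and SDC1 were lost without the filter on low values (adjusted p = 0.139, 0.0962 and 0.0927), those of GPC3 and SDC1 also without either P10 line, that of GPC6 also without P10 line B, and that of SDC1 also without fibroblast line 1 and under scaling without the 2 most abundant features. With the later libraries in place of P10, SDC4 stood at a fitted change of -0.72 instead of -2.45, a comparison across separately made files. P10 line B, with 225 RPKM of summed fibroblast markers against 109 RPKM in line A, also had the higher GPC1 (20.2 RPKM against 11 RPKM) and SDC4 (7.59 RPKM against 4.43 RPKM). SDC1, also called lower, went the other way, at 17.6 RPKM in line B against 21.5 RPKM in line A. The part of these markers in the result was not tested.

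**Figure D3:**
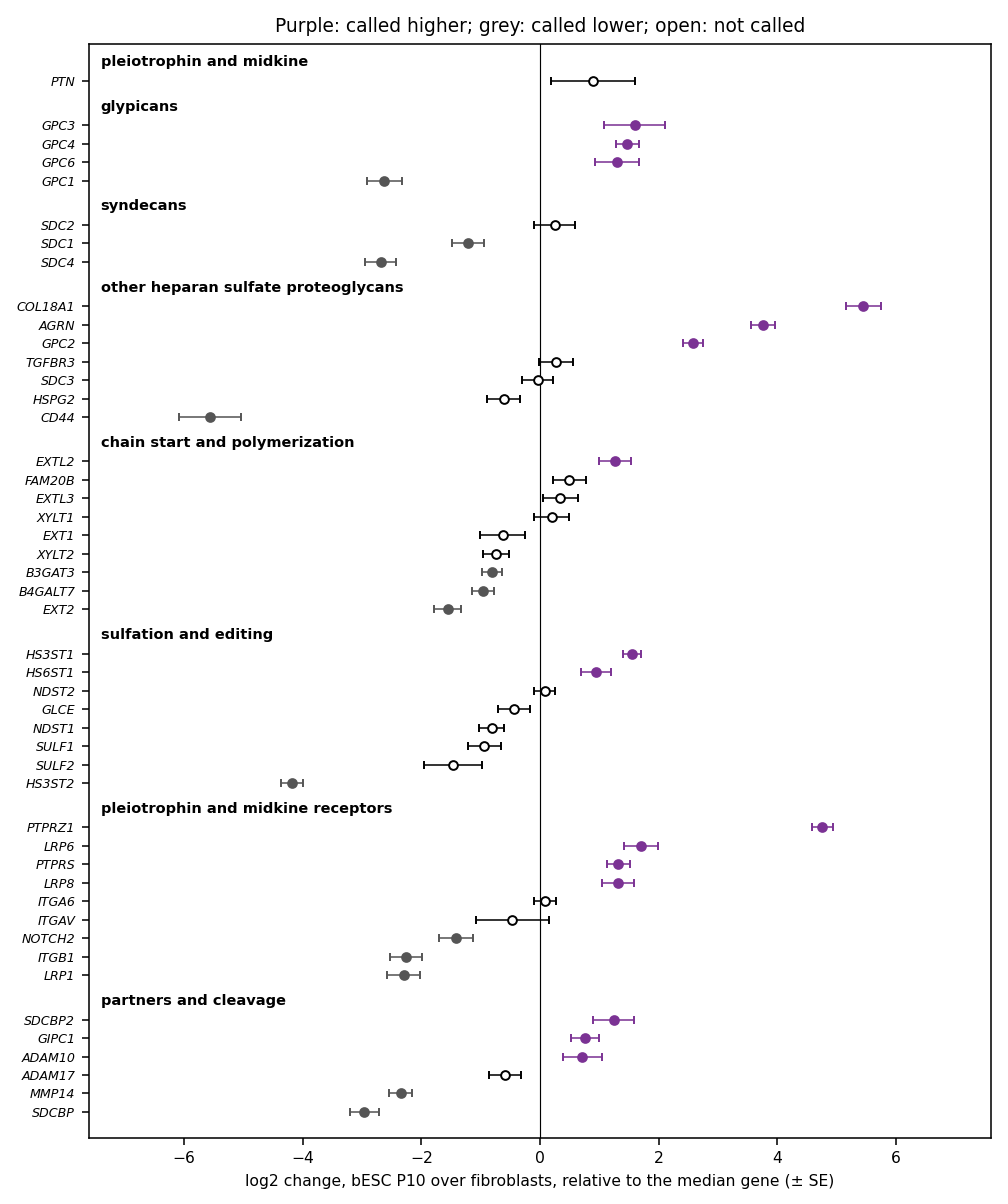
Change of bESC P10 over fibroblasts in log2(RPKM + 1), relative to the median gene, for the 8 genes listed in this set and for the other pathway genes that passed the filter, by list; bars are the SE of the fit, filled points were called at an adjusted p under 0.05 and open points were not. GPC3, GPC4 and GPC6 lie to the right of 0 and GPC1, SDC1 and SDC4 to the left; GPC6 and 8 of the other genes passed the filter through 1 group only, and the other lists also hold genes on both sides.

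Other genes of the heparan sulfate pathway were called in shares near those of all genes. Of 59 listed genes, 39 passed the filter; 13 (33.3%) were called higher and 10 (25.6%) lower, where 35.4% and 21.9% of all genes were, and 16 were not called. Of the 13, 6 passed the filter only through P10 (GPC2, AGRN, COL18A1, HS3ST1, PTPRZ1 and SDCBP2), and of the 10, 2 only through fibroblasts (CD44 and HS3ST2). Such a gene could be called in 1 direction only, so its values are given without a test. The counts by list below include these genes and describe the lists, which were chosen with earlier results of these data known.

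Of 7 further heparan sulfate proteoglycans tested, 3 were called higher and 1 lower, with a median of 0.27 relative to the median gene. Over all genes, 35.4% were called higher and 21.9% lower. All the called genes of this list passed the filter only through the group in which they are high, so the count is no support for a difference. COL18A1, which encodes a basement membrane collagen with heparan sulfate chains, measured 58.2 and 80.1 RPKM in P10 lines A and B and 0.069 and 0.716 RPKM in the fibroblast lines, a change of 5.45. The synapse organiser AGRN measured 28.3 and 31.8 RPKM in P10 and 1.09 and 0.826 RPKM in fibroblasts, a change of 3.76. The neural glypican GPC2 measured 5.76 and 7.36 RPKM in P10 and 0.07 and 0.068 RPKM in fibroblasts, a change of 2.58. The hyaluronan receptor CD44, a part-time proteoglycan, was the member with the opposite order: it measured 0.751 and 4.88 RPKM in P10 and 144 and 114 RPKM in fibroblasts, a change of -5.56.

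Of 9 receptors reported for pleiotrophin and midkine that were tested, 4 were called higher and 3 lower, with a median of 0.08; over all genes 35.4% and 21.9% were. PTPRZ1, the receptor phosphatase that pleiotrophin inhibits, measured 31.5 and 30.7 RPKM in P10 lines A and B and under 0.1 RPKM in all 4 controls, a change against fibroblasts of 4.76. Its relative PTPRS rose by 1.32 ± 0.19 (adjusted p = 7.35e-04), to 56.0 and 60.5 RPKM in P10 against 19.1 and 19.4 RPKM in fibroblasts. The integrin chain ITGB1, the most abundant gene of the list, stood at -2.25 ± 0.27 (adjusted p = 9.93e-04), with 92.2 and 133 RPKM in P10 and 385 and 533 RPKM in fibroblasts. In the later libraries PTPRZ1 measured 17.2 to 42.4 RPKM.

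Enzymes that start and extend the chain gave 1 call higher and 3 lower among 9 tested, with a median of -0.63. Over all genes, 35.4% were called higher and 21.9% lower. The polymerase subunit EXT2 stood at -1.55 ± 0.23 (adjusted p = 0.00284), with 11.8 and 17.9 RPKM in P10 and 38.6 and 37.2 RPKM in fibroblasts. EXTL2, a glycosyltransferase that limits chain synthesis, was higher by 1.27 ± 0.27 (adjusted p = 0.00368), and B4GALT7, which adds a linker galactose, stood at -0.96 ± 0.18 (adjusted p = 0.0133). Of the enzymes that sulfate or edit the chain, 2 were called higher and 1 lower of 8, with a median of -0.63, beside the same shares over all genes.

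The 3-O-sulfotransferase genes HS3ST1 and HS3ST2 were the pair of that family in the list that passed the filter. HS3ST1 passed it only through P10 and HS3ST2 only through fibroblasts, so each could be called in 1 direction only and both are given as values only. HS3ST2 measured 0.037 and 0.089 RPKM in P10 and 13.6 and 17.4 RPKM in fibroblasts, a change of -4.18, while HS3ST1 measured 2.37 and 2.85 RPKM in P10 and 0.104 and 0 RPKM in fibroblasts, a change of 1.55. The 6-O-sulfotransferase HS6ST1 was higher by 0.94 ± 0.25 (adjusted p = 0.00697). The extracellular sulfatase SULF2, the most abundant gene of the list, measured 7.44 and 24.6 RPKM in P10 and 38.4 and 29.5 RPKM in fibroblasts (-1.47 ± 0.49, adjusted p = 0.068).

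Partners and proteases of syndecans and glypicans gave 3 calls higher and 2 lower among 6 tested, with a median of 0.06. Over all genes, 35.4% were called higher and 21.9% lower. SDCBP, the syntenin adaptor that binds syndecan tails, stood at -2.96 ± 0.24 (adjusted p = 2.06e-04), with 25.7 and 34.4 RPKM in P10 and 233 and 175 RPKM in fibroblasts. Its relative SDCBP2 measured 1.01 and 3.45 RPKM in P10 and 0.082 and 0.079 RPKM in fibroblasts. The membrane protease MMP14, which sheds syndecans, stood at -2.35 ± 0.19 (adjusted p = 2.06e-04), with 59.2 and 78.4 RPKM in P10 and 297 and 300 RPKM in fibroblasts.

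Across the later passages the question was whether the lines differed and whether levels drifted with passage number. Limma called 0 of the 8 listed genes in any of these tests. Over all 12785 genes it called 0.0156% between the lines (2 genes, SYCP3 and ULBP3, both lower in line A and named after their values were seen) and 0% for the slope and for the difference of slopes. At an unadjusted p under 0.05 there were 755, 494 and 83 genes in these tests, and 0 of the 8 in each. Line A minus line B ranged from -0.23 ± 0.17 for SDC4 to 0.11 ± 0.19 for SDC1 (log2, SE), with PTN at 0.06 ± 0.42 (adjusted p = 0.976). The steepest slope was that of GPC3, at -0.40 ± 0.18 per 10 passages (unadjusted p = 0.062, adjusted p = 0.961 with limma), and it was -0.65 ± 0.25 in line A and -0.16 ± 0.24 in line B. It rested on line A at P13: the slope was -0.12 without that library and -0.13 without line A at P13 and P35. The list genes of the pathway that passed the filter (39) also gave 0 calls in each of these tests.

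Levels varied from library to library, and the lack of calls does not show that lines or passages are alike. PTN measured 269, 99.9, 235 and 119 RPKM in line A at P13, P23, P35 and P45, and 153, 124, 322 and 104 RPKM in line B at P12, P24, P35 and P46. Line A at P13 and P35 and line B at P35 were the highest of the 8, spanning with the others a 3.23-fold range. The same 3 libraries were the highest for 5 of the 8 listed genes, PTN, MDK, GPC1, SDC1 and SDC2, whereas 20.9% of all 12785 genes had them on top; 0 of the 8, and 7.34% of all genes, had them at the bottom. These 3 libraries were picked after their values were seen, so no test goes with the count.

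SDC2 measured 57.2, 36.2, 51.1 and 39.5 RPKM in line A and 45.7, 44.7, 64.3 and 39.2 RPKM in line B, in the same order of passages. SDC1 spanned 18.7 to 31.1 RPKM, MDK 420 to 620 RPKM and GPC1 14.04 to 18.2 RPKM over the 8 libraries. PTN was thus the most variable of these 5 genes and GPC1 the least. GPC3 had its own order, with 124, 20.7, 31.1 and 19.9 RPKM in line A and 43.4, 39.2, 62.3 and 23.7 RPKM in line B, the value at line A P13 standing alone. GPC4 stayed within 254 to 330 RPKM.

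SDC4 ran the other way in line A. It measured 14.3, 25.0, 17.0 and 25.5 RPKM in line A at P13, P23, P35 and P45, and 25.0, 21.4, 23.0 and 25.0 RPKM in line B at P12, P24, P35 and P46. Its lowest values fell in line A at P13 and P35, which also stood apart from the other later libraries on the first principal component (33.2 and 26.6, against 7.53 for line B at P35 and -6.85 to -19.4 for the others; 52.5% of the variance). The same 2 libraries had the lowest later sums of the trophectoderm markers, 235 and 340 RPKM, against 632 and 738 RPKM in the rest of line A and 536 to 788 RPKM in line B. The summed fibroblast markers were 295 and 344 RPKM in these libraries, 280 RPKM in line B at P35 and 214 to 306 RPKM in the other 5; the part of either marker list in these values was not tested.

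**Figure D4:**
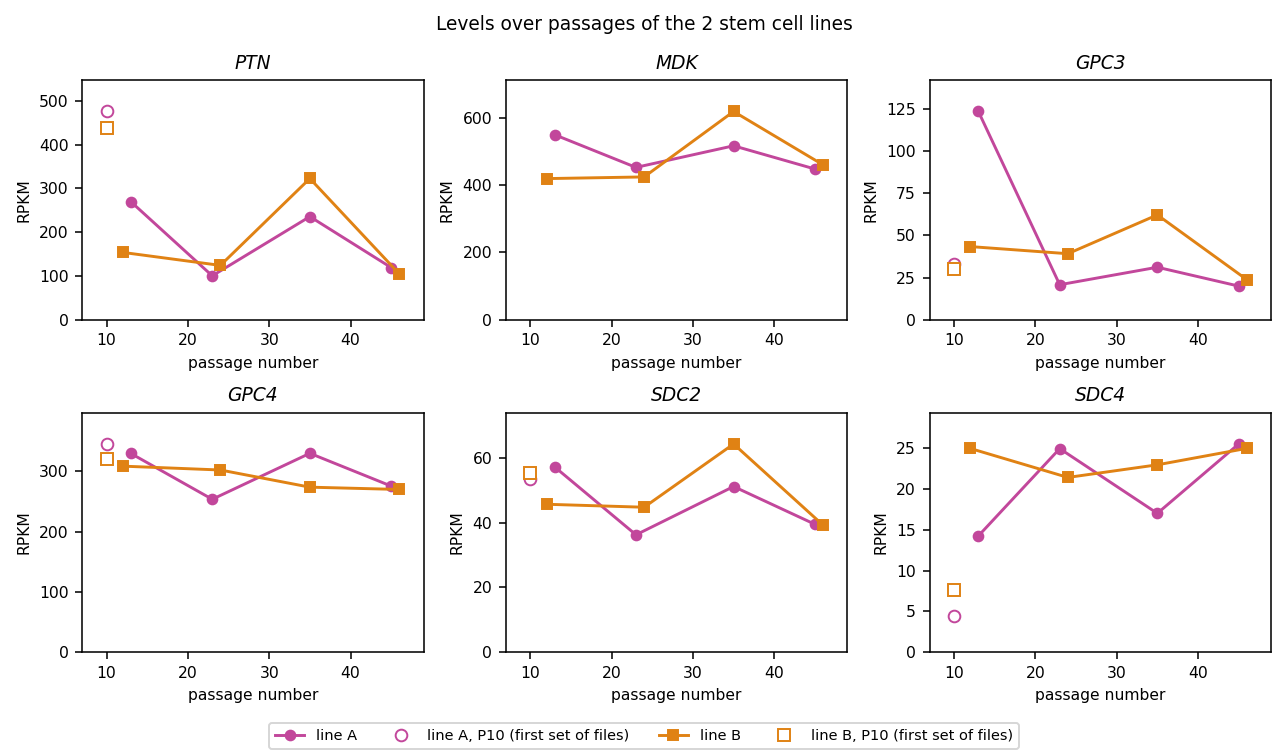
RPKM of PTN, MDK, GPC3, GPC4, SDC2 and SDC4 against passage number in line A (circles) and line B (squares); each point is 1 library, and open symbols mark P10, whose files belong to the other set. PTN, MDK and SDC2 are highest at P13 and P35 of line A and at P35 of line B among later libraries, SDC4 is lowest among them at P13 and P35 of line A with both P10 points below, and GPC3 peaks at 124 RPKM in line A at P13.

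Between P10 and the later libraries the values are set side by side, because the files were made separately and the step coincides with the change of files; the 2 cannot be told apart. PTN was 476 and 439 RPKM at P10 and 99.9 to 322 RPKM later, with no overlap. SDC4 was 4.43 and 7.59 RPKM at P10 and 14.3 to 25.5 RPKM later, also with no overlap. The summed trophectoderm markers, mostly KRT8 and KRT18, likewise stood at 157 and 188 RPKM at P10 and at 235 to 788 RPKM later; their part in these values was not tested. GPC4 (320 and 345 RPKM at P10, 254 to 330 RPKM later), GPC1, GPC3 and SDC2 overlapped between the sets. SDC1 ran from 17.6 to 21.5 RPKM at P10 and from 18.7 to 31.1 RPKM later. GPC2 and SDC3 of the same families were 5.76 and 7.36 RPKM and 10.17 and 14.7 RPKM at P10, and 11.2 to 18.9 RPKM and 20.3 to 34.5 RPKM later.

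The genes most like PTN, MDK and GPC4 in pattern were found by the mean absolute difference of log2(RPKM + 1) after each gene's own mean was subtracted. Over all 14 libraries and 6251 genes, PTN was closest to SMOC1, a secreted calcium-binding matrix protein (0.52, where the median gene stood at 1.52), FSTL1, a secreted glycoprotein (0.58), and SMO, the signal transducer of the hedgehog pathway (0.67). SMOC1 measured 109 and 120 RPKM at P10 in lines A and B, 0.109 and 0.053 RPKM in the pools and 22.4 and 72.6 RPKM in the fibroblast lines, with 142, 86.4 and 107 RPKM in line A at P13 and P35 and line B at P35 and 20.7 to 47.9 RPKM in the other later libraries. It was thus low in blastocysts, higher in fibroblast line 2 than in line 1 and highest among later libraries in the same 3 as PTN. GPC4 was closest to the neuronal deubiquitinase UCHL1 (0.26, median gene 1.60), the FGF receptor FGFR1 (0.34) and the actin-bundling protein FSCN1 (0.43). MDK was closest, over the 8 later libraries and 5817 genes, to the receptor tyrosine kinase ERBB2 (0.042, median gene 0.172), to PTPRS (0.047) and to the sugar transferase OGT (0.048).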

How the data were processed

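Per the file names and headers, the authors deposited 1 table of RPKM values per library, and no read counts. Per the submitters' processing notes the genome build UMD3.1 and edgeR were used; the role of each is not stated, and the aligner, counter and annotation were not given in the sources used here. In the first set (6 files), 26 unreadable names, 25 names turned into dates and 21 features with a blank value were left out; in the second (8 files), 26 such names were restored in 5 files. The sets share 18440 names after 2568 with a copy suffix were dropped. A table of bovine RefSeq symbols (ARS-UCD2.0) matched 13608 and 14547 names; its coordinates are of another build and are not printed. No sequences are shown.

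Depth in reads is unknown. From the ratio of low values, relative depth was 1.00 to 1.56 times that of fibroblast line 1 in the first set; in the second it was 0.71 to 1.03 times that of the P13 library. No 2 libraries of a set shared more than 0.389% of their values exactly.

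Values were tested as log2(RPKM + 1) with limma 3.58.1 (R 4.3.3; empirical Bayes with trend, two-sided, Benjamini-Hochberg over all genes, call at adjusted p under 0.05) on genes that reached 1 RPKM in 2 or more libraries of the fit. The first fit holds 2 P10, 2 blastocyst and 2 fibroblast libraries, and the second the 8 later libraries with line and passage, and in addition a line by passage term. Calculations were tested on simulated data. Python 3.11.15, pandas 2.3.3 and numpy 2.4.6 were used for the rest. The replicate letters A and B were not taken to pair samples.

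The members and lists were chosen with earlier results of these data known. From each of the 5 pathway lists the text names up to 3 called genes of smallest adjusted p and the most abundant one, and for PTN, MDK and GPC4 the 3 genes nearest in pattern among names with a RefSeq symbol that reach 10 RPKM; for MDK this was done over 8 libraries, because the first set was not used for it. Alternatives were another pseudocount (0.1), no filter, quantile normalization, median-of-ratios scaling, scaling without the 2 most abundant features, a replicate block, other sets of libraries and leaving out each library.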

Additional observations from a re-analysis of the deposited data

Results flagged for a closer look

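GPC3 in line A at P13 measured 124 RPKM, while the other 3 later libraries of line A lay between 19.9 and 31.1 RPKM. The gap to the nearest of them was 0.892 of the range of the 4 values, above Dixon's 95% critical value for 4 samples. This was 1 flag among 16 checks (8 genes in 2 lines), and chance flags about 1 group in 20.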

How the results depend on the processing

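Against fibroblasts the calls of GPC1, GPC4 and SDC4 held, with their direction, under all 14 alternatives run, 6 of which left out 1 library. The call of GPC4 reuses P10 libraries by which it was picked, except with the later libraries in place of P10. That setting is no independent support either. Its 8 stem cell libraries are later passages of the same lines, counted as replicates of 1 group, and come from separately made files. Without the filter on low values the genes called higher went to 1 of 8, in place of 3. Leaving out 1 library each gave 1 to 5 genes called higher and 2 to 3 lower, and 2426 to 3901 genes higher and 1691 to 2413 lower over all genes. The fitted change of PTN, not called, was -0.36 with the later libraries in place of P10 (adjusted p = 0.556) and ranged from -0.11 to 2.36 when 1 library was left out, and that of SDC2 from -0.063 to 1.02. With the replicate block of letters A and B, 4056 genes were called higher and 2514 lower, and the calls of the 8 genes did not change; deviations from the group means correlated across genes at -0.10 between P10 and fibroblasts, -0.079 between P10 and blastocysts and 0.187 between blastocysts and fibroblasts, so the letters were not taken as a pairing of P10 with the controls.

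Between later lines the 2 genes called lower in line A became 5 with a pseudocount of 0.1 and 5 with the replicate block by passage stage, 1 each with no filter, with median-of-ratios scaling and with quantile normalization, 0 without line A at P13 and P35, and 0 to 5 without 1 library. None of these alternatives called any of the 8 genes between lines, for the slope or for the difference of slopes. PTN between lines stood at -0.55 without line A at P13 and P35 and at -0.18 to 0.43 without 1 library, and GPC3, at -0.16 with all libraries, at -0.88 and at -0.68 to 0.18 in the same settings. The slope of PTN was 0.014 without line A at P13 and P35 and -0.18 to 0.022 without 1 library, and the genes called with a falling slope numbered 0 to 2. The cause of these shifts was not tested. A group left with 1 library is assumed to vary like the others. With depth unknown in reads, no counting error can be given for the low values in blastocysts.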

Other observations

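A 3-O-sulfotransferase gene stood apart in a single later library. HS3ST1, noticed after its values were seen, measured 9.47 RPKM in line B at P35, against 2.60 to 4.62 RPKM in the other 7 later libraries, 2.37 and 2.85 RPKM at P10 and at most 0.104 RPKM in the controls. COL18A1 measured 82.7 and 103 RPKM in line A at P13 and P35 and 99.6 to 125 RPKM in the other later libraries. CD44 stayed low in all later libraries, at 1.63 to 4.08 RPKM.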
